A study of Homo sapiens with 18 samples.

Results

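The genes of antigen presentation described here are 35 genes whose products make peptides, load them onto molecules of the major histocompatibility complex (MHC) or form those molecules. Of these, 18 belong to the class I pathway and 17 to the class II pathway. Members were chosen by symbol, and a probe annotated to a member was kept where its detection p-value, a measure of signal over the negative controls, was under 0.01 on at least 3 of 18 arrays. This left 41 of 54 member probes and 28 of 35 members (17 of class I and 11 of class II), out of 13336 probes and 8947 named genes kept on the whole array. A gene with several kept probes was represented by the one with the highest mean over all arrays, and its other probes are given where they differed in call.

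All arrays held RNA of KMS11, an established human multiple myeloma cell line in which a translocation drives the histone methyltransferase MMSET (gene symbol NSD2). The knock-down system carried a doxycycline-inducible short hairpin RNA against the 5′ region of MMSET, kept without the drug (no DOX, 3 arrays) or with it (+DOX, 3 arrays). No group received the drug without this hairpin, so the drug and the hairpin cannot be told apart. The repletion system used MMSET knock-out cells infected with a retrovirus. The virus carried DSRed only (an empty vector, 3 arrays), wild-type MMSET II (3 arrays), MMSET II with the F1177A change, which the labels call active (3 arrays), or MMSET II with the Y1118A change, which they call inactive (3 arrays). All 4 repletion groups therefore share the knock-out and the infection, and the 3 comparisons against DSRed share its arrays. The labels do not give separate cultures for the 3 arrays of a group, so a p-value here reflects array-to-array spread, and that spread may be technical. Levels are neqc-normalised log2 intensities with an offset of 16, which shrinks the differences of dim probes. A difference was called at an adjusted p under 0.05 in limma, with Benjamini-Hochberg adjustment over all kept probes.

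MHC class I molecules pair a heavy chain with beta-2-microglobulin and show peptides from inside the cell to cytotoxic T cells and natural killer cells. The peptides are cut by the proteasome, in particular by its interferon-inducible immunoproteasome form, carried into the endoplasmic reticulum by the TAP transporter and loaded there with the help of tapasin. MHC class II molecules are pairs of alpha and beta chains that are held by the invariant chain CD74 until HLA-DM exchanges its remnant for an antigenic peptide, and their genes depend on the transactivator CIITA and the RFX complex. Plasma cells, from which myeloma arises, normally express class I and have shut off much of the class II programme.

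The members cluster in the genome. In the RefSeq annotation of GRCh38.p14, 20 of the 35 lie on chromosome 6 between bases 29723434 and 33314078, 10 of each class. TAP1 (chr6:32845209-32853704) and PSMB9 (chr6:32854192-32859851), a transporter subunit and an immunoproteasome subunit, are separated by 488 bases. Promoter windows of 300 bases, from 250 before to 50 after the annotated start, were found in RefSeq (GRCh38.p14) for 30 of the 35 members, 16 of class I and 14 of class II. For ERAP1 the window (chr5:96814096-96814395) lay around a listed start inside the gene's range (chr5:96760813-96935854), not at its end. The interferon-stimulated response element, searched on both strands as GAAA, 2 further bases and GAAA, was present in 8 of 16 class I windows (50%) and in 0 of 14 class II windows, against 3.66% of 27303 gene windows. The Y box core, searched as CCAAT on both strands, was in 6 of 16 class I windows (37.5%) and 11 of 14 class II windows (78.6%), against 35.7% of all. The TAP1 window (to base 32853954) and the PSMB9 window (from base 32853942) overlap, and the same CCAAT was counted in both. The X box core, searched as AGCAAC on both strands, was in 1 of 16 and 4 of 14 windows (28.6%), against 13% of all. The gamma-activated site TTCNNNGAA was in 0 of 16 class I and 1 of 14 class II windows (7.88% of all). The NF-kB letters, GGG, 5 further bases and CC, were in 8 of 16 and 9 of 14 (57.9% of all). These searches covered both strands as well, and matches of the NF-kB letters overlapped each other and the Y box core in places.

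The windows of 4 members are shown because these genes gave some of the widest differences between the groups below. HLA-F is a non-classical class I heavy chain and PSMB10 an immunoproteasome subunit. HLA-DQB1 is a class II beta chain and HLA-DMA the alpha chain of the peptide exchange factor. Capitals mark the Y box core, the X box core and the interferon-stimulated response element on either strand, none of which overlapped another in these windows. A match describes letters and is not a measured site.
HLA-F, chr6:29723184-29723483, plus strand: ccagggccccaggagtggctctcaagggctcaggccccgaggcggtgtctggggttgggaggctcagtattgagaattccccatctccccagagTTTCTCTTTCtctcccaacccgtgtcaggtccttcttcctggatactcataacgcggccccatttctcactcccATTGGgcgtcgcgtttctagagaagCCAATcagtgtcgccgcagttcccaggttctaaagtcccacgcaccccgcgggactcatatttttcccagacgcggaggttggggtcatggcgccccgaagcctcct
PSMB10, chr16:67936801-67937100, minus strand: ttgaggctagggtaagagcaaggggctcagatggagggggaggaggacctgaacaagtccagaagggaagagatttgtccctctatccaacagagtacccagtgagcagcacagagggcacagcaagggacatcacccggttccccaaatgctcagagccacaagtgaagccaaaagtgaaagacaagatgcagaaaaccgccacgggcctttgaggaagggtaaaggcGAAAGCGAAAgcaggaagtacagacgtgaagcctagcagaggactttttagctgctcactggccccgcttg
HLA-DQB1, chr6:32666608-32666907, minus strand: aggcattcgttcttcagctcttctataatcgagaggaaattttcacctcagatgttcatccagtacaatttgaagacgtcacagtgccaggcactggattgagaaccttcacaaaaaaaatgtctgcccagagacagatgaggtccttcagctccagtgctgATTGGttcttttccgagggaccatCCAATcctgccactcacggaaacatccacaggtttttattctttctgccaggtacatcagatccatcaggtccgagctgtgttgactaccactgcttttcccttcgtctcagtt
HLA-DMA, chr6:32953048-32953347, minus strand: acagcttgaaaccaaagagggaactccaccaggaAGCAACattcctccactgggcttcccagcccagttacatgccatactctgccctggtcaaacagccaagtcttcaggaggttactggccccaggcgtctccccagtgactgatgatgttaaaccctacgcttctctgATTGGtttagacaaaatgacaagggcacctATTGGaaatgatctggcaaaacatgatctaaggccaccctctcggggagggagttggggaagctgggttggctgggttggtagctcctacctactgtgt
The HLA-F window holds both a Y box core on each strand and an interferon-stimulated response element from 156 to 147 bases before the start. The PSMB10 window holds that element alone, from 21 to 12 bases before the start. The HLA-DQB1 and HLA-DMA windows each hold 2 Y box cores, and HLA-DMA also an X box core.

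Checks of the arrays came first. NSD2 was detected at 1 of its 4 probes, on all 18 arrays, and was lower by a log2 difference of -0.70 (SE 0.133, adjusted p = 0.000408) in +DOX than in no DOX. It was not called between any of the repletion groups (adjusted p from 0.421 to 0.903), and whether this probe reads the retroviral transcript was not tested, so it is no check of the repletion labels. Of 10 plasma cell markers, 9 were detected on at least 3 arrays (CD38 on none), while 0 of 5 T cell markers with a probe were. So were 2 of 4 epithelial, 2 of 8 myeloid and dendritic, 1 of 4 earlier B cell, 1 of 4 fibroblast and 1 of 3 endothelial markers. Among these, EPCAM was detected on 15 arrays and CD68 on 18. The plasma cell markers were uneven: SDC1 averaged 10.58 in no DOX, 4.92 in MMSET II and 4.97 in F1177A, and SLAMF7 was detected on 3 arrays. Array brightness, the 95th percentile of intensity, differed between groups: its mean log2 was 8.21 in no DOX, 8.68 in F1177A, 8.97 in +DOX, 9.26 in DSRed, 9.56 in MMSET II and 9.57 in Y1118A (n = 3 each). DSRed replicate 3 was the brightest array (1033, against 491 and 453 for the other DSRed arrays). Its level was the lowest of the 3 DSRed arrays at 13 of 17 class I genes (76.5%) and 5 of 11 class II genes, against 43.0% of 8947 named genes. For the comparisons against DSRed, the class I counts and the called differences of at least 0.58 (absolute log2) are also given without that array. Class II counts without it are given for MMSET II and F1177A. In these bulk samples, fewer cells of a type and less RNA per cell cannot be told apart.

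**Figure D1:**
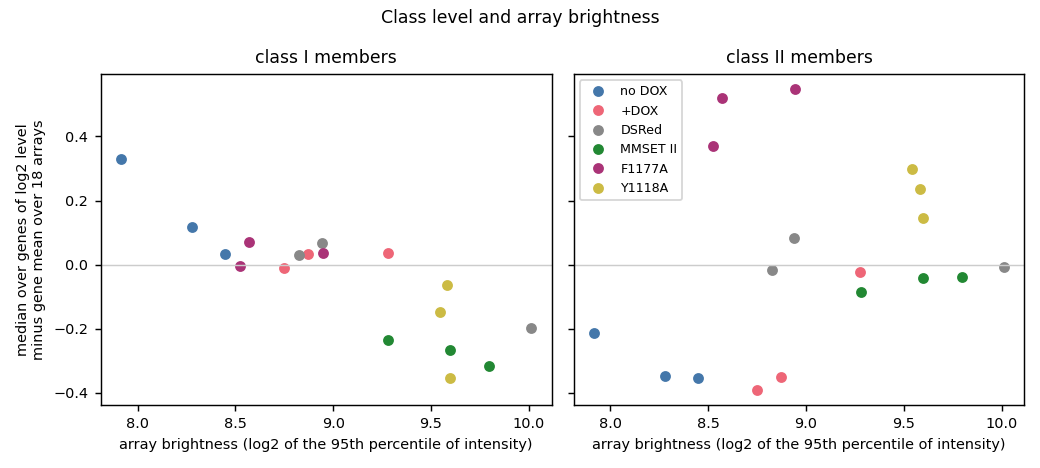
Array brightness (x axis, log2 of the 95th percentile of intensity) against the level of each class on that array (y axis, median over 17 class I or 11 class II genes of the log2 level minus the gene's mean over 18 arrays), 1 point per array, coloured by group. The class I panel runs from 0.33 on no DOX replicate 3, the dimmest array, to -0.35 on Y1118A replicate 3. In the class II panel the F1177A arrays, at 0.37 to 0.55, stand above every other array.

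For class I, the median centred level was 0.03, 0.12 and 0.33 in no DOX, 0.04, 0.03 and -0.01 in +DOX, 0.07, 0.03 and -0.20 in DSRed, -0.32, -0.27 and -0.23 in MMSET II, 0.04, 0.00 and 0.07 in F1177A and -0.06, -0.15 and -0.35 in Y1118A. No DOX and F1177A, the dimmest groups, lay above MMSET II and Y1118A, the brightest. Within no DOX, DSRed, MMSET II and Y1118A the brightest array lay lowest, with the Y1118A arrays nearly equal in brightness. Within +DOX the brightest array lay highest, at 0.04 beside 0.03 and -0.01, and within F1177A it lay between the other arrays. For class II, the dim no DOX arrays (-0.35, -0.35 and -0.21) lay below the bright Y1118A arrays (0.24, 0.30 and 0.15), and F1177A lay highest at 0.55, 0.37 and 0.52. The same median over all named genes stayed between -0.07 and 0.04. The part of brightness in the class I differences was not tested beyond a fit with brightness as a covariate. Its class counts are given for +DOX against no DOX and for F1177A against Y1118A and against MMSET II. For MMSET II against Y1118A only its number of members called is given. The comparisons against DSRed, DSRed against no DOX and the difference of effects are shown without that fit. Directions are relative to the bulk of genes, which quantile normalisation holds level. Scaling each array to its median over all probes instead shifted the median of all genes by up to 0.78, and its class counts are given with each comparison. Relative to that shift, all 43 differences of named members kept their sign. Removing the shift sets the bulk of genes level again, as in the quantile normalisation under which these differences were selected. That count was therefore largely fixed beforehand and is no check of the scaling.

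Not all of the machinery was detectable. The class I transactivator NLRC5 passed with detection on 6 arrays, 2 of no DOX, 3 of +DOX and 1 of F1177A. Just outside the threshold lay the class II transactivator CIITA, detected on 2 arrays, both of MMSET II. The peptide-trimming enzyme ERAP1 was detected on 1 array, and HLA-DRB1, HLA-DOA, HLA-DOB and the endosomal protease CTSS were detected on none. HLA-DQA1 has no annotated probe here. HLA-DPB1 (13 arrays), 1 of 4 PSMB8 probes (12 arrays), the dimmer ERAP2 probe (9 arrays) and NLRC5 passed through the groups where they were brighter, so their counts as members are not evidence of a difference. The heavy chain genes are related in sequence, and cross-hybridisation between HLA-B, HLA-C, HLA-E, HLA-F and HLA-G was not tested.

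Class I levels were lower in +DOX than in no DOX, relative to the bulk of genes, and the drug and the hairpin cannot be told apart here. In +DOX against no DOX, 10 of 17 class I genes fell and 1 rose, and 2 of 11 class II genes fell and 0 rose (1 was higher at an unadjusted p under 0.05 in limma). Under median scaling over all probes, where the median of all genes moved by 0.51, 3 class I genes were higher and 0 lower, and 5 class II genes were higher and 0 lower (0 lower in either class at an unadjusted p under 0.05). Of these 8 genes, 1 was called in the same direction under quantile normalisation. Over all named genes, 42.1% were called, 22.1% higher and 20% lower, so the share of members called (13 of 28) is near the background while the share of class I genes lower is above it. The median log2 difference was -0.25 for class I and 0.00 for class II, beside 0.02 for all named genes. All 5 heavy chain genes and all 5 immunoproteasome and activator genes were called lower. None of the 4 transport and loading genes was called lower, although TAPBPL had a log2 difference of -0.31, beyond the -0.24 of HLA-B. Among lists of other cells' markers, the epithelial list had summed log2 levels of 10.01 to 10.40 in no DOX and 10.28 to 10.46 in +DOX. The endothelial (6.59 to 6.71 and 6.65 to 6.92), fibroblast (6.39 to 6.41 and 6.41 to 6.51) and T cell lists (6.70 to 6.79 and 6.66 to 6.76) overlapped as well. The myeloid and dendritic and the earlier B cell lists lay lower in +DOX, untested. The 8 myeloid and dendritic markers had summed log2 levels of 8.25 to 8.52 in no DOX and 7.98 to 8.13 in +DOX (6 of them, CD14, CSF1R, ITGAM, AIF1, FCER1G and CD1C, on no array). The earlier B cell list had 7.93 to 8.04 and 7.40 to 7.77, with 1 of 4 markers detected (CD79A) and MS4A1, CD22 and PAX5 on no array. Their part in the class I difference was not tested.

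The heavy chains had these levels. HLA-F, a non-classical heavy chain, read 8.28, 8.12 and 8.37 in no DOX and 6.74, 6.46 and 6.65 in +DOX at its dimmer probe. The groups lay apart by more than their own spread, with a log2 difference of -1.64 (SE 0.136, adjusted p = 4.29e-08), a 3.11-fold lower level. At its brighter probe the values were 12.11, 11.97 and 12.27 against 11.66, 11.50 and 11.69, a log2 difference of -0.50 (SE 0.137, adjusted p = 0.00713), so the 2 probes shared the direction and differed in size. HLA-C (chr6:31268749-31272092), a classical heavy chain, read 8.81, 8.63 and 8.94 in no DOX and 8.03, 7.92 and 8.34 in +DOX. Every +DOX array lay below every no DOX array (log2 difference -0.70, SE 0.168, adjusted p = 0.00269). HLA-E (chr6:30489509-30494194), the ligand of the natural killer receptor NKG2A, read 9.65, 9.42 and 9.91 against 9.10, 8.94 and 9.05. The arrays did not overlap (log2 difference -0.63, SE 0.149, adjusted p = 0.00253). HLA-G (chr6:29826474-29831021), known for inhibiting immune cells at the placenta, read 9.77, 9.64 and 9.74 against 9.34, 9.34 and 9.48 (log2 difference -0.33, SE 0.111, adjusted p = 0.0245). HLA-B (chr6:31353875-31357179), a classical heavy chain, read 12.71, 12.69 and 12.74 against 12.67, 12.31 and 12.43. Its 1.18-fold fall (log2 -0.24, SE 0.0843, adjusted p = 0.0264) was the smallest of the 5. B2M, the shared light chain (chr15:44711517-44718145), was not called (log2 difference -0.16 at its brighter probe), and its dimmer probe overlapped at 13.40, 13.35 and 13.55 against 12.93, 13.28 and 13.36.

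**Figure D2:**
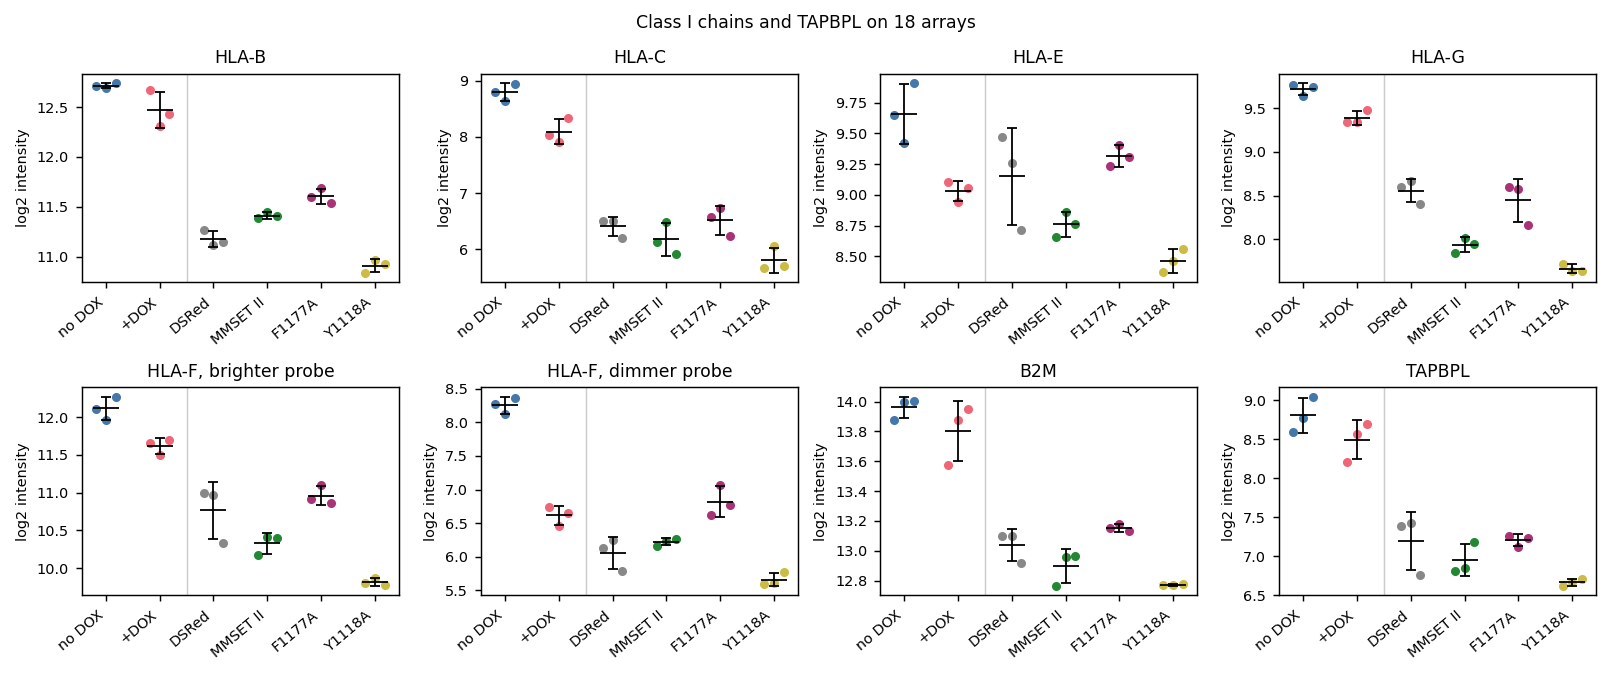
Log2 intensity (y axis) of class I heavy chains, B2M and the tapasin-like TAPBPL on 18 arrays, 1 panel per probe with its own y range, by group (x axis). Points are arrays, the horizontal mark is the mean and the bar 1 SD (n = 3). At the dimmer HLA-F probe +DOX (6.46 to 6.74) lies below no DOX (8.12 to 8.37), and Y1118A is the lowest repletion group at HLA-B, HLA-E and both HLA-F probes.

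The peptide supply genes split. PSMB10, an immunoproteasome subunit (chr16:67934506-67936850), read 11.17, 11.18 and 11.30 in no DOX and 10.30, 10.33 and 10.32 in +DOX. The groups did not overlap (log2 difference -0.90, SE 0.101, adjusted p = 1.7e-06). PSMB9, the subunit encoded beside TAP1, read 7.59, 7.34 and 8.03 against 6.60, 6.66 and 7.01 (log2 difference -0.89, SE 0.19, adjusted p = 0.00105). PSMB8, the third inducible subunit (chr6:32840717-32844679), read 9.40, 9.50 and 9.64 against 9.04, 8.90 and 9.07 at its brightest probe. There it fell by 0.51 on the log2 scale (SE 0.119, adjusted p = 0.00231), and of its 3 other kept probes 2 fell, one from 8.03, 7.99 and 8.004 to 7.35, 7.23 and 7.45 (log2 difference -0.66, adjusted p = 6e-05). The proteasome activator subunits PSME1 and PSME2 fell by less, with log2 differences of -0.25 (adjusted p = 0.0121) and -0.23 (adjusted p = 0.0435). PSME2 read 10.07, 10.22 and 10.13 against 9.91, 9.95 and 9.89, without overlap. TAP1 moved against them. It read 9.70, 9.81 and 9.97 in no DOX and 10.17, 10.25 and 10.17 in +DOX, so all +DOX arrays were higher (log2 difference 0.37, SE 0.0907, adjusted p = 0.00312). TAP2, tapasin (TAPBP), TAPBPL, NLRC5 and the trimming enzyme ERAP2 were not called.

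Class II showed 2 falls. HLA-DQB1 (chr6:32659467-32666657) read 8.56, 8.41 and 8.80 in no DOX and 8.06, 7.69 and 7.78 in +DOX, without overlap (log2 difference -0.75, SE 0.173, adjusted p = 0.00216). RFX5, the DNA-binding subunit of the RFX complex (chr1:151340640-151347252), read 10.38, 10.37 and 10.30 against 9.80, 9.69 and 9.35. It fell 1.67-fold (log2 difference -0.74, SE 0.129, adjusted p = 0.000191). The RFX subunit RFXANK fell at 1 of 3 probes (log2 difference -0.42, adjusted p = 0.0091), not at its brightest. HLA-DMA read 10.09, 10.26 and 10.56 in no DOX and 10.45, 10.17 and 10.16 in +DOX, and HLA-DMB 7.35, 7.93 and 7.98 against 8.16, 7.35 and 7.29, both with overlap. The other class II genes were not called, and HLA-DPA1 overlapped between the groups at 8.59, 8.46 and 8.44 against 8.95, 8.17 and 8.34. With brightness as a covariate the class I counts were 5 lower and 1 higher (median -0.23), and HLA-E and HLA-DQB1 were no longer called (adjusted p 0.112 and 0.107).

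**Figure D3:**
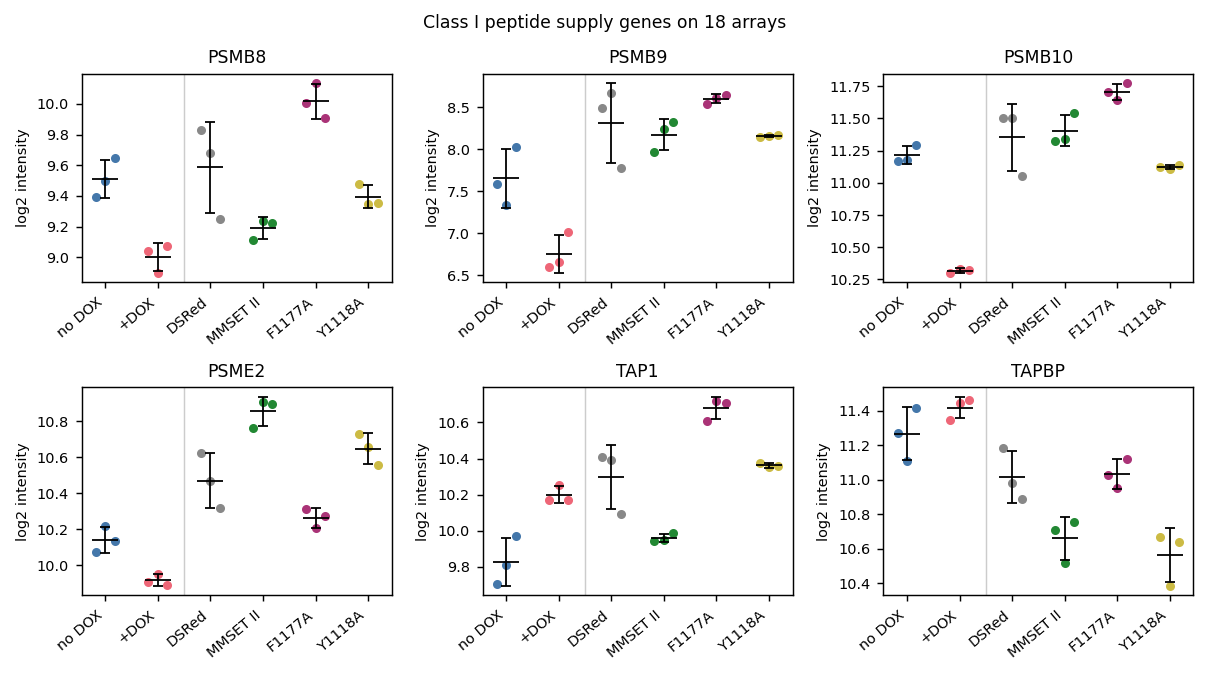
Log2 intensity (y axis) of 3 immunoproteasome subunits, the activator subunit PSME2, TAP1 and tapasin (TAPBP) on 18 arrays, by group (x axis), with 1 y range per panel. Points are arrays, the horizontal mark is the mean and the bar 1 SD (n = 3). PSMB10 falls from 11.17 to 11.30 in no DOX to 10.30 to 10.33 in +DOX, and PSME2 is highest in MMSET II at 10.76 to 10.91.

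Restoring wild-type MMSET II in the knock-out cells was compared with the empty vector. Against DSRed, 2 class I genes were higher and 5 lower of 17, and of 11 class II genes 0 were higher (1 at an unadjusted p under 0.05 in limma) and 1 lower, with 32.8% of all named genes called (17.9% higher and 14.8% lower), so the 8 of 28 members called lie near the background. Medians were -0.14 for class I, -0.09 for class II and 0.01 for all genes. With median scaling over all probes, 0 members were called (3 at an unadjusted p under 0.05 in limma). HLA-G read 8.59, 8.67 and 8.41 in DSRed and 7.84, 8.02 and 7.95 in MMSET II. The groups did not overlap (log2 difference -0.62, SE 0.111, adjusted p = 0.000264, and -0.70 without DSRed replicate 3). HLA-DQB1 read 9.40, 9.26 and 8.47 in DSRed and 8.21, 8.20 and 8.48 in MMSET II. Only DSRed replicate 3 reached into the MMSET II range, the log2 difference was -0.75 (SE 0.173, adjusted p = 0.00256), and without that array it was -1.04 (adjusted p = 4.99e-06). HLA-B was higher (log2 difference 0.23, adjusted p = 0.0411), as was PSME2, at 10.62, 10.47 and 10.32 in DSRed and 10.76, 10.91 and 10.90 in MMSET II (log2 difference 0.39, adjusted p = 0.00196). TAP1 (-0.34), TAPBP (-0.36), PSMB8 (-0.40) and HLA-F (-0.44, brighter probe) were lower. TAP1 read 10.41, 10.39 and 10.09 in DSRed and PSMB8 9.83, 9.68 and 9.25, each above the MMSET II values given below. The HLA-F probes disagreed: the brighter read 10.17, 10.41 and 10.41 in MMSET II, while the dimmer read 6.13, 6.25 and 5.79 in DSRed and 6.16, 6.24 and 6.27 in MMSET II and was not called (log2 difference 0.17, adjusted p = 0.365). HLA-C (6.13, 6.49 and 5.91 in MMSET II), HLA-E (8.66, 8.86 and 8.76) and both immunoproteasome subunits PSMB9 and PSMB10 were not called. PSMB9 read 8.49, 8.66 and 7.77 in DSRed and 7.96, 8.24 and 8.32 in MMSET II, and PSMB10 11.51, 11.50 and 11.05 against 11.33, 11.34 and 11.54, both with overlap. RFXANK was lower at 1 of its dimmer probes (-0.33, adjusted p = 0.0391). CD74, the invariant chain (chr5:150401639-150412910), was lower at 2 of 3 probes and not called at its brightest. Its dimmest probe read 7.64, 7.29 and 7.42 in DSRed and 6.57, 6.69 and 6.55 in MMSET II (log2 difference -0.85, SE 0.172, adjusted p = 0.000848, and -0.86 without DSRed replicate 3). Its middle probe read 12.24, 12.04 and 11.93 against 11.65, 11.77 and 11.58, also without overlap (log2 difference -0.40, adjusted p = 0.00651). In the knock-down system CD74 was not called at any probe, the dimmest reading 7.25, 6.57 and 7.39 in no DOX and 7.15, 6.69 and 7.01 in +DOX, and the middle one 11.64, 11.41 and 11.79 against 11.76, 11.55 and 11.61. At the PSMB8 probe detected on no MMSET II array, DSRed was at least 1.18-fold higher. That probe passed the filter through the other groups, so its call is no support. The other 2 dimmer PSMB8 probes were not called, one reading 8.33, 8.32 and 7.998 in DSRed and 7.98, 8.06 and 8.14 in MMSET II. Without DSRed replicate 3 the class I counts were 2 higher and 7 lower (median -0.33) and the class II counts 0 and 2. Leaving out DSRed replicate 2 or MMSET II replicate 1 brought the members called to 5 in each case. In MMSET II the plasma cell list had summed log2 levels of 14.08 to 14.24, below 14.49 to 14.64 in DSRed. The epithelial (7.46 to 7.66 against 6.42 to 6.46) and fibroblast lists (6.94 to 7.07 against 6.57 to 6.71) lay higher. The earlier B cell list (6.43 to 6.46 against 6.59 to 6.65) and the T cell list, with no marker detected, lay lower. The other lists overlapped, and the part of these lists was not tested.

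The class II exchange genes were higher in F1177A, the mutant labelled active, than in the empty vector. Against DSRed, 4 of 17 class I and 3 of 11 class II genes were higher and 0 lower in either class (1 class I gene at an unadjusted p under 0.05 in limma), with 20.6% of all named genes called, 12.1% higher and 8.57% lower. Medians were 0.12 for class I, 0.25 for class II and -0.02 for all genes. Median scaling over all probes left 1 class I gene lower, which was not called under quantile normalisation, and no other member called. HLA-DMB, the beta chain of the exchange factor (chr6:32934636-32941028), read 8.42, 8.44 and 8.23 in DSRed and 9.60, 9.52 and 9.40 in F1177A, 2.2-fold higher (log2 difference 1.14, SE 0.185, adjusted p = 0.00019). HLA-DMA (chr6:32948618-32953097), its partner, read 10.71, 10.60 and 10.06 against 11.21, 11.29 and 11.28 (log2 difference 0.80, SE 0.145, adjusted p = 0.000613). In both genes every F1177A array lay above every DSRed array. HLA-DPA1, a class II alpha chain (chr6:33064569-33080748), read 10.43, 10.32 and 10.13 against 10.92, 10.92 and 10.84 (log2 difference 0.60, SE 0.137, adjusted p = 0.00426). HLA-DRA, the near-invariant alpha chain of HLA-DR, was higher at its dimmer probe (log2 difference 0.46, adjusted p = 0.00891). Class I members HLA-B (0.43), TAP1 (0.38), PSMB8 (0.43) and PSMB10 (0.35) were higher too, and so was HLA-F at its dimmer probe, at 6.61, 7.07 and 6.78 in F1177A (log2 difference 0.77, adjusted p = 0.000483), but not at its brighter one (0.19, adjusted p = 0.341). HLA-B read 11.27, 11.12 and 11.15 in DSRed, below its F1177A values. Of the 3 dimmer PSMB8 probes 1 was higher, at 8.75, 8.56 and 8.57 in F1177A (log2 difference 0.41, adjusted p = 0.0089). Without DSRed replicate 3 the class I counts were 2 higher and 1 lower (median 0.02), while class II had 4 higher and 0 lower (median 0.30). HLA-DMB (1.07), HLA-DMA (0.60), HLA-DPA1 (0.52) and the dimmer HLA-F probe (0.63) kept their calls there. Summed log2 levels of the plasma cell list were 14.21 to 14.25 in F1177A and 14.49 to 14.64 in DSRed. The epithelial (7.10 to 7.16 against 6.42 to 6.46), fibroblast (7.02 to 7.19 against 6.57 to 6.71) and myeloid and dendritic lists lay higher. The last read 8.33 to 8.51 against 7.94 to 8.32. The earlier B cell list lay lower (6.41 to 6.58 against 6.59 to 6.65), and the others overlapped. Their part was not tested.

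All 5 class I heavy chain genes were lower in Y1118A, the mutant labelled inactive, than in the empty vector. Against DSRed, 8 of 17 class I genes were lower and 1 higher, and of 11 class II genes 2 were higher and 1 lower, with 27.5% of all named genes called, 16% higher and 11.5% lower. Medians were -0.23 for class I, 0.12 for class II and 0.03 for all genes. Median scaling over all probes left 1 class I gene lower and no other member called. HLA-F read 11.001, 10.96 and 10.33 in DSRed and 9.80, 9.88 and 9.77 in Y1118A at its brighter probe, with no overlap (log2 difference -0.95, SE 0.137, adjusted p = 5.87e-05). HLA-G read 8.59, 8.67 and 8.41 against 7.72, 7.64 and 7.63 (log2 difference -0.89, SE 0.111, adjusted p = 1.39e-05). HLA-E read 9.47, 9.26 and 8.71 against 8.37, 8.46 and 8.56, with DSRed replicate 3 next to the Y1118A range (log2 difference -0.69, SE 0.149, adjusted p = 0.00228). HLA-C read 6.51, 6.51 and 6.20 against 5.66, 6.07 and 5.70 (log2 difference -0.60, adjusted p = 0.0129). Without DSRed replicate 3 the log2 differences were -1.17 for HLA-F, -0.97 for HLA-G, -0.90 for HLA-E and -0.70 for HLA-C, all called. HLA-C was not called without DSRed replicate 1 or 2, or without Y1118A replicate 1 or 3 (adjusted p from 0.0572 to 0.062). HLA-B (-0.27), B2M (-0.27), TAPBP (-0.45) and TAPBPL (-0.52) were lower, and so was the dimmer HLA-F probe, at 5.59, 5.62 and 5.77 in Y1118A (log2 difference -0.39, adjusted p = 0.0387). ERAP2 (0.57, not at its dimmer probe), HLA-DMB (0.58) and RFX5 (0.46, from 10.98, 11.18 and 11.64 in DSRed) were higher. HLA-DQB1 was lower (log2 difference -0.56, adjusted p = 0.0228) with DSRed replicate 3 inside the Y1118A range. RFXANK was lower at 1 of its dimmer probes (-0.45, adjusted p = 0.00922). The 12 members called became 16 without DSRed replicate 3 (class I 1 higher and 10 lower, median -0.36). They became 4 without DSRed replicate 1, 5 without DSRed replicate 2, and 5, 7 and 6 without Y1118A replicate 1, 2 and 3. The plasma cell list had summed log2 levels of 13.98 to 14.06 in Y1118A and 14.49 to 14.64 in DSRed. The earlier B cell list was also lower (6.48 to 6.51 against 6.59 to 6.65). The epithelial (6.68 to 6.71 against 6.42 to 6.46) and fibroblast lists (6.77 to 6.87 against 6.57 to 6.71) were higher, and the others overlapped. The part of these lists was not tested.

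Between the repletion constructs, 17 of 28 members were called in F1177A against Y1118A (60.7%, beside 36.8% of all named genes). The number was 16 in F1177A against MMSET II (57.1%, beside 38.4%) and 5 in MMSET II against Y1118A (17.9%, beside 18.3%). Against Y1118A, 11 of 17 class I genes were higher in F1177A and 2 lower, and 4 of 11 class II genes were higher and 0 lower (1 at an unadjusted p under 0.05 in limma). Under median scaling over all probes, where the median of all genes was -0.65, 4 class I and 3 class II genes were lower and 0 higher (0 also at an unadjusted p under 0.05). Of these 7, 2 were lower under quantile normalisation as well. The background was 36.8% called, 16.9% higher and 19.9% lower. Medians were 0.47 for class I, 0.01 for class II and -0.02 for all genes, so the class II rise lay in a few genes. All 5 heavy chains and B2M rose from Y1118A to F1177A. HLA-F was 2.21-fold higher at its brighter probe, reading 9.80, 9.88 and 9.77 in Y1118A and 10.92, 11.10 and 10.86 in F1177A (log2 difference 1.14, SE 0.137, adjusted p = 6.71e-06), and 2.24-fold higher at the dimmer one. HLA-B read 10.84, 10.97 and 10.93 in Y1118A and 11.60, 11.68 and 11.54 in F1177A (log2 difference 0.69, SE 0.0843, adjusted p = 8.07e-06). Both genes separated the groups without overlap. HLA-E read 9.23, 9.41 and 9.31 in F1177A (log2 difference 0.85, adjusted p = 0.000319). HLA-G read 8.60, 8.57 and 8.16 there (log2 difference 0.78, adjusted p = 4.29e-05). HLA-C read 6.58, 6.73 and 6.23 (log2 difference 0.71, adjusted p = 0.00352). Each of these F1177A ranges lay above the Y1118A values given earlier.

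The light chain and the peptide supply genes followed in part. B2M read 11.97, 12.11 and 12.12 in Y1118A and 12.63, 12.66 and 12.72 in F1177A at its dimmer probe (log2 difference 0.61, SE 0.118, adjusted p = 0.000804), and the brighter probe rose by less (0.38). PSMB8 read 9.48, 9.35 and 9.36 in Y1118A and 10.01, 10.13 and 9.91 in F1177A (log2 difference 0.62, adjusted p = 0.000708). It also rose at 2 of its 3 dimmer probes, one reading 8.13, 8.06 and 8.09 in Y1118A (log2 difference 0.53, adjusted p = 0.000813). PSMB10 read 11.12, 11.11 and 11.14 against 11.70, 11.64 and 11.77 (log2 difference 0.58, adjusted p = 0.000293). TAPBPL (0.54), TAPBP (0.47) and TAP1 (0.32, from 10.38, 10.35 and 10.36) rose, and PSMB9 at 8.15, 8.16 and 8.17 in Y1118A and 8.54, 8.61 and 8.65 in F1177A was not called. PSME2, at 10.73, 10.66 and 10.56 in Y1118A, and ERAP2 fell, with log2 differences of -0.39 (adjusted p = 0.00232) and -0.53 (adjusted p = 0.0291). In DSRed and MMSET II the dimmer B2M probe read 12.59, 12.78 and 12.25, and 12.23, 12.24 and 12.41, below every F1177A value apart from DSRed replicate 2.

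In class II, HLA-DQB1 read 8.50, 8.51 and 8.45 in Y1118A and 9.43, 9.57 and 9.50 in F1177A, a 2.02-fold rise (log2 difference 1.01, SE 0.173, adjusted p = 0.000269). HLA-DMA read 10.35, 10.41 and 10.20 against 11.21, 11.29 and 11.28 (log2 difference 0.94, SE 0.145, adjusted p = 9.96e-05). HLA-DPA1 read 10.29, 10.23 and 10.20 against 10.92, 10.92 and 10.84 (log2 difference 0.65, adjusted p = 0.00141). At each of them every F1177A array lay above every Y1118A array. HLA-DMB rose by less, from 8.93, 9.10 and 8.80 to 9.60, 9.52 and 9.40 (log2 difference 0.56, adjusted p = 0.0248). CD74 and the RFX genes were not called at their brightest probes. At dimmer probes CD74 (0.32, adjusted p = 0.026), HLA-DRA (0.33, adjusted p = 0.0337) and RFXANK (0.32, adjusted p = 0.0456) were higher in F1177A, and RFX5 read 11.70, 11.72 and 11.75 in Y1118A and 11.46, 11.37 and 11.42 in F1177A. With brightness as a covariate, the counts were 5 class I genes higher and 1 lower (median 0.30) and 3 class II genes higher (median 0.27), and HLA-C, PSMB8 and the dimmer B2M probe lost their calls. The 8 myeloid and dendritic markers, cells that present antigen through class II, had summed log2 levels of 8.33 to 8.51 in F1177A and 7.99 to 8.09 in Y1118A. Their part in the class II difference was not tested, while 6 of the 8 (CD14, CSF1R, ITGAM, AIF1, FCER1G and CD1C) were detected on no array. Other lists also lay higher in F1177A without overlap. The plasma cell list had 14.21 to 14.25 against 13.98 to 14.06, and the epithelial list 7.10 to 7.16 against 6.68 to 6.71. The fibroblast list had 7.02 to 7.19 against 6.77 to 6.87. The T cell, earlier B cell and endothelial lists overlapped, and none of these was tested.

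**Figure D4:**
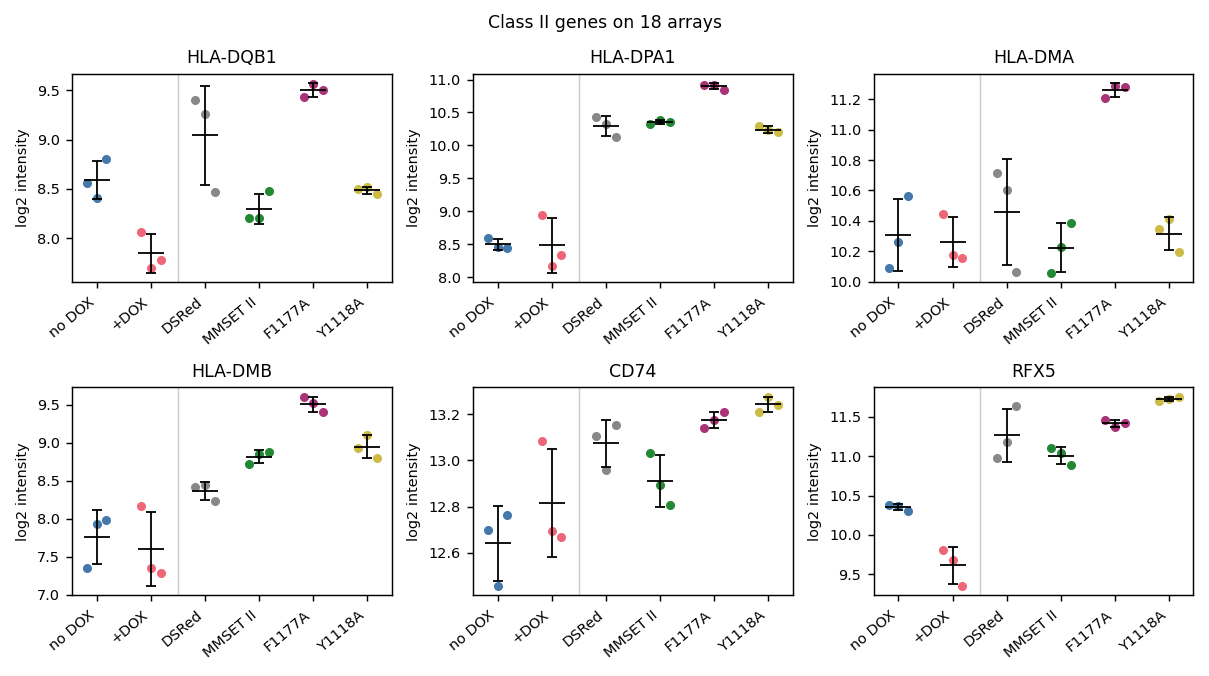
Log2 intensity (y axis) of class II genes on 18 arrays, by group (x axis), with 1 y range per panel. Points are arrays, the horizontal mark is the mean and the bar 1 SD (n = 3). F1177A is the highest of the 6 groups at HLA-DMA (11.21 to 11.29) and HLA-DMB (9.40 to 9.60), and RFX5 is lowest in +DOX (9.35 to 9.80).

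F1177A was also set against the wild-type form. Of 17 class I genes, 8 were higher in F1177A than in MMSET II and 1 was lower, and of 11 class II genes, 7 were higher and 0 lower (0 also at an unadjusted p under 0.05 in limma), with 38.4% of all named genes called, 18.1% higher and 20.3% lower. Medians were 0.30 for class I, 0.40 for class II and -0.02 for all genes. Under median scaling over all probes, where the median of all genes was -0.65, 4 class I genes and 1 class II gene were lower and 0 were higher (1 at an unadjusted p under 0.05). Of these 5, 1 was lower under quantile normalisation as well. HLA-DQB1 read 8.21, 8.20 and 8.48 in MMSET II against 9.43, 9.57 and 9.50 in F1177A, a log2 difference of 1.21 (SE 0.173, adjusted p = 3.45e-05). HLA-DMA read 10.06, 10.23 and 10.38 in MMSET II, lower than every F1177A array (log2 difference 1.04, SE 0.145, adjusted p = 2.69e-05). PSMB8 read 9.11, 9.24 and 9.22 in MMSET II (log2 difference 0.82, SE 0.119, adjusted p = 3.65e-05). TAP1 read 9.94, 9.95 and 9.99 in MMSET II and 10.61, 10.72 and 10.71 in F1177A, again without overlap (log2 difference 0.72, SE 0.0907, adjusted p = 9.26e-06). HLA-DMB read 8.72, 8.85 and 8.88 in MMSET II (log2 difference 0.69, adjusted p = 0.00681). HLA-DPA1 read 10.32, 10.39 and 10.35 (log2 difference 0.54, adjusted p = 0.00444). HLA-DRA rose at both probes (0.40 and 0.55). CD74 rose at all 3, most at the dimmest, which read 7.25, 7.64 and 7.42 in F1177A (log2 difference 0.83, adjusted p = 0.000982). Its middle probe read 12.16, 12.41 and 12.25 there (log2 difference 0.61, adjusted p = 0.000212), and neither probe overlapped MMSET II. PSMB8 rose at 2 of its 3 dimmer probes as well. HLA-E (0.56), HLA-F (0.63), HLA-G (0.51), B2M (0.26), TAPBP (0.37), PSMB10 (0.30) and RFX5 (0.41) rose, and PSME2 fell from 10.76, 10.91 and 10.90 to 10.31, 10.21 and 10.27 (log2 difference -0.59, SE 0.0864, adjusted p = 3.92e-05). With brightness as a covariate, 3 class I genes were higher and 1 lower (median 0.18), and 7 class II genes were higher and 1 lower (median 0.59). HLA-F at both probes and HLA-DMB lost their calls in that fit. The 8 myeloid and dendritic markers had summed log2 levels of 8.09 to 8.22 in MMSET II and 8.33 to 8.51 in F1177A, without overlap, with the same 6 on no array. The epithelial list lay lower in F1177A (7.10 to 7.16) than in MMSET II (7.46 to 7.66), and the other lists overlapped. Their part in the class II difference was not tested.

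Wild-type MMSET II and Y1118A differed in 5 of 28 members (17.9%), near the background. Of 17 class I genes, 2 were higher in MMSET II and 1 was lower, and of 11 class II genes, 0 were higher (0 also at an unadjusted p under 0.05 in limma) and 2 lower, with 18.3% of all named genes called, 9.03% higher and 9.27% lower. Medians were 0.12 for class I, -0.13 for class II and -0.01 for all genes. With median scaling over all probes, 0 members were called (3 at an unadjusted p under 0.05). HLA-B read 11.39, 11.45 and 11.40 in MMSET II and 10.84, 10.97 and 10.93 in Y1118A (log2 difference 0.50, SE 0.0843, adjusted p = 0.000346). HLA-F was higher at both probes (0.51 and 0.56). TAP1 was lower in MMSET II (log2 difference -0.40, adjusted p = 0.00423), as were CD74 at its brightest probe (-0.33, adjusted p = 0.0297) and RFX5, at 11.10, 11.04 and 10.88 against 11.70, 11.72 and 11.75 (log2 difference -0.72, SE 0.129, adjusted p = 0.000662). The dimmest CD74 probe had the wider difference, reading 6.57, 6.69 and 6.55 in MMSET II and 7.39, 7.28 and 7.30 in Y1118A, without overlap (log2 difference -0.72, adjusted p = 0.00637). The middle one, at 11.88, 12.08 and 11.91 in Y1118A, was not called (-0.29, adjusted p = 0.0635). The 5 members called became 3 without MMSET II replicate 2 or replicate 3, 9 with brightness as a covariate, and 13 in a fit of these 2 groups alone.

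**Figure D5:**
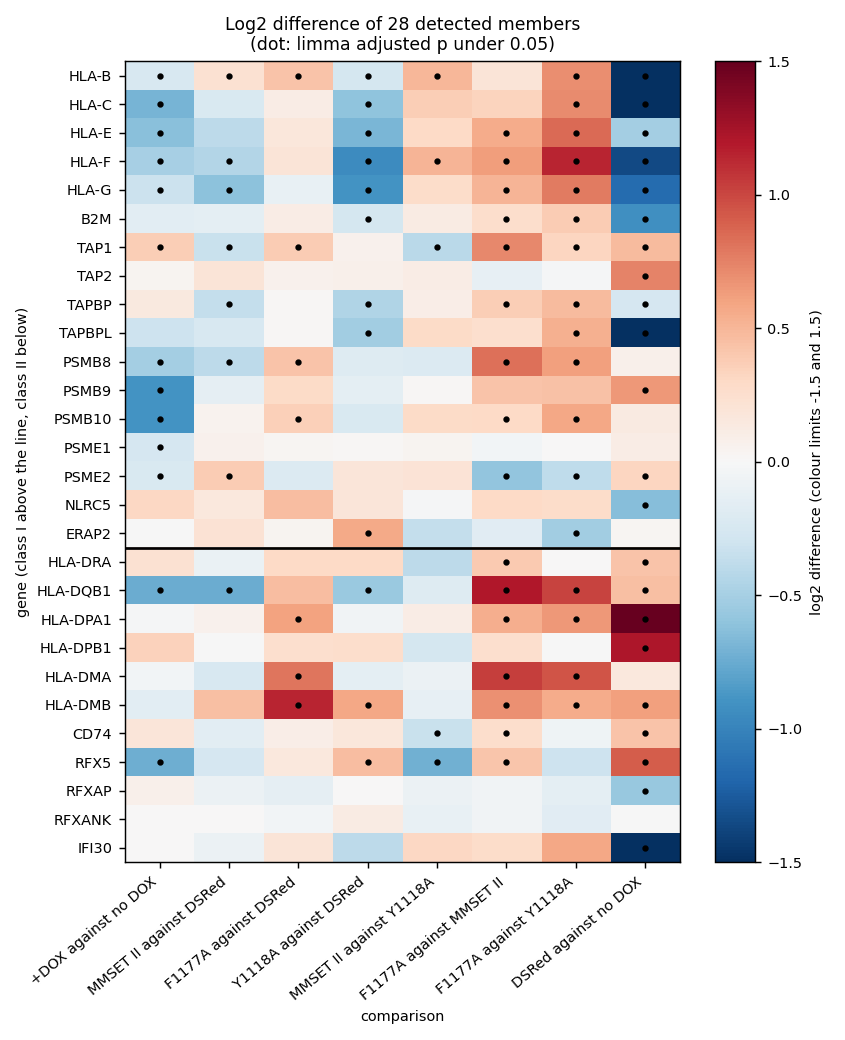
Log2 difference (colour, limited to -1.5 and 1.5) of the brightest kept probe of 28 detected members (y axis) in 8 comparisons (x axis), with a dot where the limma adjusted p was under 0.05. The column F1177A against Y1118A holds 15 higher and 2 lower calls. Under median scaling over all probes, which moved the median of all genes in that comparison to -0.65, 13 of the 28 members, 9 of the 17 called among them, had the opposite sign.

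The effect of adding MMSET II back was set against that of +DOX, in which drug and hairpin cannot be told apart. This contrast, the difference of effects, was the log2 difference of MMSET II to DSRed minus that of +DOX to no DOX. It was called in 7 of 28 members, 5 class I genes with a higher and 2 with a lower value and 0 class II genes (3 at an unadjusted p under 0.05 in limma), against 30.1% of all named genes (15.9% higher and 14.2% lower). PSMB10 (0.95, SE 0.143, adjusted p = 5.68e-05), PSMB9 (0.76), PSME2 (0.61), HLA-B (0.48) and PSME1 (0.32) had higher values. TAP1 (-0.71, SE 0.128, adjusted p = 0.000359) and TAPBP (-0.51) had lower values. With median scaling over all probes, 1 member was called. The dimmer HLA-F probe had the largest value among member probes (1.81, SE 0.192, adjusted p = 9.07e-07), while the brighter probe of the same gene gave 0.06 (SE 0.193, adjusted p = 0.845). CD74 had a lower value at its 2 dimmer probes (-0.73 and -0.43) and PSMB8 a higher one at 1 (0.51), neither at its brightest, and TAPBP was not called at its dimmer probe.

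The 2 systems differed widely even between their control groups, DSRed and no DOX, in which system, knock-out, infection and array brightness cannot be told apart. Of 28 members, 22 were called, with 61% of all named genes called (33.8% higher and 27.1% lower). In class I, 9 genes were lower and 4 higher (median -0.25), and in class II, 2 were lower and 7 higher (median 0.43), beside 0.07 for all genes. Under median scaling over all probes, which moved the median of all genes to 0.78, 9 class I genes were higher and 4 lower, and 9 class II genes were higher and 1 lower. All 5 heavy chains and B2M were lower in DSRed under quantile normalisation. HLA-C was 5.24-fold lower (log2 difference -2.39, SE 0.168, adjusted p = 3.05e-10), from the 8.63 to 8.94 of no DOX to 6.20 to 6.51. HLA-B fell by 1.53 on the log2 scale (adjusted p = 7.76e-12) and B2M by 0.92 (adjusted p = 2.99e-08). TAPBPL, a tapasin-related peptide editor, was lower (log2 difference -1.61), as was IFI30, the lysosomal thiol reductase that unfolds class II antigens, at 9.27, 10.00 and 10.32 in no DOX and 8.05, 7.83 and 6.90 in DSRed (log2 difference -2.27, SE 0.245, adjusted p = 1.59e-07). NLRC5 was at least 1.02-fold lower, since no DSRed array detected it. It passed the filter mainly through the knock-down arrays, so its call is no support for this direction.

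Class II peptide-binding chains went the other way. HLA-DPA1 was 3.46-fold higher in DSRed, reading 8.59, 8.46 and 8.44 in no DOX and 10.43, 10.32 and 10.13 in DSRed (log2 difference 1.79, SE 0.137, adjusted p = 1.1e-09). HLA-DPB1, its partner chain, was detected on no array of no DOX and on all 3 of DSRed, at least 1.37-fold higher. It passed the filter through the repletion groups, so its call and its place in the class II count are no support for this direction. HLA-DRA (0.43), HLA-DQB1 (0.45), HLA-DMB (0.61), CD74 (0.43) and RFX5 (0.91) were higher as well, and so were the peptide supply genes TAP1 (0.47), TAP2 (0.75), PSMB9 (0.65) and PSME2 (0.33), while TAPBP (-0.25) and RFXAP (-0.57), the third RFX subunit, were lower. Dimmer probes differed in call at TAP2, TAPBP, HLA-DRA and the dimmest CD74 probe, which were not called, at RFXANK, lower at 1 of 3 (-0.58), and at ERAP2, at least 1.11-fold higher at its dimmer probe. That ERAP2 probe passed the filter through the repletion groups as well, so its call is no support either. Markers of other cells also differed between the 2 systems. The earlier B cell list had summed log2 levels of 7.93 to 8.04 in no DOX and 6.59 to 6.65 in DSRed, with 1 of 4 markers detected (CD79A) and MS4A1, CD22 and PAX5 on no array. The epithelial list had 10.01 to 10.40 and 6.42 to 6.46, through EPCAM and KRT18, with KRT5 and KRT8 on no array. Plasma cell markers went both ways. SDC1 had a mean level of 10.58 in no DOX and 6.29 in DSRed. JCHAIN (12.73 and 11.98), MZB1 (12.75 and 12.47), SLAMF7 (5.50 and 4.35) and POU2AF1 (9.62 and 9.44) were also lower in DSRed. PRDM1 (10.27 and 10.76), XBP1 (12.17 and 12.58), TNFRSF17 (11.65 and 12.21) and IRF4 (9.56 and 9.60) were higher. Their summed log2 levels overlapped, at 14.61 to 14.72 in no DOX and 14.49 to 14.64 in DSRed. The part of these differences in the class I and class II levels was not tested.

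Lists of pathway genes outside the 35 were read in the same fit. Of 13 detected genes of the interferon route to these promoters, 2 were higher and 4 lower in +DOX, 5 higher and 3 lower in F1177A against MMSET II, and 2 higher and 3 lower in F1177A against Y1118A. Over all named genes, 42.1% were called in +DOX (22.1% higher and 20% lower). The shares were 38.4% in F1177A against MMSET II (18.1% and 20.3%) and 36.8% against Y1118A (16.9% and 19.9%). Whether the lists differ from these shares was not tested. IRF1, a transcription factor that binds the interferon-stimulated response element, was lower in +DOX (log2 difference -0.56, adjusted p = 0.0063). It was also lower in MMSET II (-0.66) and Y1118A (-0.57) than in DSRed, and higher in F1177A than in MMSET II (0.73) and Y1118A (0.64). IRF8, another factor of that family, was lower in +DOX (-0.70), higher in MMSET II than in DSRed (0.87) and lower in F1177A than in MMSET II (-1.15).

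Of 17 detected genes of class I loading and trimming, 6 were higher and 1 lower in +DOX, and 1 higher and 6 lower in F1177A against MMSET II. The shares called over all named genes were 42.1% and 38.4%. PSME3, the nuclear proteasome activator, was higher in +DOX (0.65) and in MMSET II than in DSRed (0.73), and lower in F1177A than in MMSET II (-0.94). MICB, a stress ligand of the natural killer receptor NKG2D related to class I, was higher in F1177A than in MMSET II (1.15) and Y1118A (0.92). Of 13 detected genes of class II handling, 3 were higher and 2 lower in F1177A against MMSET II, and 3 higher and 3 lower against Y1118A. Over all named genes, 38.4% and 36.8% were called there. Legumain (LGMN), an endosomal protease that cuts antigens, was lower in MMSET II (-1.43) and Y1118A (-1.52) than in DSRed, and higher in F1177A than in either (1.56 and 1.65). Cathepsin H (CTSH) was higher in MMSET II (1.94) and F1177A (1.66) than in DSRed. List medians in these comparisons lay between -0.23 and 0.23, apart from class I loading and trimming in DSRed against no DOX (-0.44).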

How the data were processed

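RNA of 18 KMS11 samples was amplified and labelled with biotin for Illumina bead arrays, per the labels' protocols. Per the file headers, the authors deposited a non-normalized probe intensity, on a linear scale, and for each value a detection p-value. The submitters' processing notes name GenomeStudio 1.5.4. As 31.1% of intensities lie below 0, some background had already been subtracted, in a way not given in the sources used here. A second deposited set, the series matrix, also holds an intensity and served as an alternative. The 54 per-sample columns were all read.

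Background was corrected with neqc of limma 3.58.1 (R 4.3.3; controls inferred from detection p-values, offset 16), arrays were quantile-normalised and deposited intensities became log2 values. A single limma model with 1 coefficient for each group was fitted (residual degrees of freedom 12, trended variance, two-sided). Gene symbols came from the platform annotation, which names 27578 of 48803 probes with 1 symbol. No 2 arrays held identical values. Limma's script was tested on simulated data in which 200 of 13336 probes were changed between +DOX and no DOX. It recovered 61.8% of 1.5-fold, 93.8% of 2-fold and 100% of 3-fold changes, and 5.43% of its calls were unchanged probes. A member not called can therefore still differ. The number of arrays limits the precision.

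Members and lists were chosen with earlier results of these data known. Members with a probe called within a system at an absolute log2 difference of at least 0.58 (17 genes) have the array values of that probe given. IRF1, IRF8, PSME3, MICB, LGMN and CTSH were chosen from their lists after their values were seen. Replicate numbers were checked as pairs: deviations of same-numbered arrays correlated at -0.59 to 0.34. All 3 pairs passed 0.1 only in F1177A against MMSET II (0.18 to 0.28).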

Additional observations from a re-analysis of the deposited data

How the results depend on the processing

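The 43 differences of named members were each refitted under 20 or 21 of 33 settings. In 893 refits, 842 kept direction and call, 41 lost the call and 10 turned. All 10 turned under median scaling over all probes, which lost 29 others. That scaling moved the median of all genes by 0.51 in +DOX against no DOX, 0.23 in MMSET II and 0.24 in Y1118A against DSRed, -0.42 in F1177A against DSRed, -0.65 in F1177A against MMSET II and against Y1118A, 0.78 in DSRed against no DOX and -0.29 in the difference of effects. The share of calls that were higher became 96.2% (52.5% under quantile normalisation), 86.7% (54.7%), 91.4% (58.1%), 18.9% (58.5%), 2.04% (47.2%), 3.30% (45.9%), 90.8% (55.5%) and 42.6% (52.8%) in that order, and 69.5% (49.4%) in MMSET II against Y1118A. Relative to the shift, all 43 values kept their sign, which was largely fixed by setting the bulk of genes level again. The turned values were 0.0495 for HLA-E in +DOX. In F1177A against MMSET II they were -0.0623 for CD74, -0.0740 for HLA-DMB, -0.0437 and -0.141 for HLA-F and -0.0681 for TAP1. In F1177A against Y1118A they were -0.0130 for HLA-B, -0.109 for HLA-DPA1, -0.124 for PSMB10 and -0.156 for PSMB8. Median scaling over detected probes, chosen after seeing the data, kept all 43.

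Member genes called in +DOX were 13, but 8 under that scaling over all probes (8 higher, 1 of them called the same way otherwise) and 8 with brightness as a covariate. For MMSET II against DSRed they were 0 under that scaling (3 at an unadjusted p under 0.05 in limma) and 17 with array weights (8 otherwise), for F1177A against DSRed 1 and 14 (7), and for Y1118A against DSRed 1 and 23 (12), or 7 with no filter. For MMSET II against Y1118A they were 0 (3 unadjusted) and 15 (5), 13 in the fit of these groups only and 9 with brightness. For F1177A they were 5 under that scaling against MMSET II (16 otherwise), all lower, with 1 shared, and 7 against Y1118A (17), all lower, with 2 shared, or 9 with brightness. The difference of effects had 1 (7). The estimation of array weights stopped before convergence. Leaving out 1 array gave 10 to 14 in +DOX, 5 to 11 in MMSET II, 6 to 8 in F1177A and 4 to 16 in Y1118A against DSRed, 3 to 5 in MMSET II against Y1118A, 11 to 14 and 14 to 16 in F1177A against MMSET II and Y1118A, 19 to 23 in DSRed against no DOX and 5 to 8 in the difference. The cause was not tested.

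With the replicate number as a block, the pairing of F1177A with MMSET II gave 16 members called, as without it, and no other count or call of the 43 changed beyond 1.5 times (12 in +DOX). Each array correlated best with its own number in 3 of 3 cases there and in 0 to 2 elsewhere. The slide as a block was not run, because the headers name no slide. Members near the detection limit (NLRC5, HLA-DPB1) have only bounds where a group lacks detection.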
